A study of Mus musculus with 6 samples.

Results

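Immediate early transcription factors were examined in the tibialis anterior (TA) muscle of mice, a fast limb muscle, after overexpression of the transcription factor Prox1. The set was fixed by gene name and holds 10 genes: Fos, Fosb, Fosl2, Jun, Junb, Jund, Egr1, Atf3, Nr4a1 and Ier2. They are covered by 13 of the 45281 probes of an Illumina Mouse expression array, and are 10 of the 19057 genes with a probe that carries a single gene symbol. The samples were 3 TA muscles that received AAV8-Prox1, an adeno-associated virus encoding Prox1, and 3 TA muscles that received AAV8-NLS-mCherry, the same kind of vector encoding a red fluorescent protein with a nuclear localization signal. All came from male C57Bl/6J mice labelled as 3 months old, so both groups had been injected with a virus, and the study's methods give an age of 8 weeks at injection and its text 4 weeks of expression. The study placed the control vector in the contralateral muscle, but which muscles share a mouse cannot be read from the labels. The promoter that drives the vector is not given in the sources used here, and the study describes fibres with and without Prox1 in an injected muscle, so each value is a mixture of both.

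Immediate early genes are genes that a cell switches on within minutes of a stimulus, without making a protein first. Serum, stretch, contraction, calcium signals and stress all act on them through MAP kinases and through factors such as SRF, its ETS partners and CREB that already sit in the nucleus. FOS and JUN proteins pair through leucine zippers to form AP-1, which binds DNA, whereas EGR1 and NR4A1 carry zinc fingers. In skeletal muscle these genes are known to respond to exercise and injury, and they can also be induced in any tissue by the handling of an animal or a sample. For that reason the value of each gene is given below for each muscle.

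The promoters of Fos, Jun and Atf3 are shown because these genes had higher signals with AAV8-Prox1, and that of Nr4a1 because its probe stayed at background. Each is a stretch of 250 bases, 5′ to 3′, from RefSeq on mouse build GRCm38.p6. For Fos, Jun and Atf3 it lies just before the gene's start. The window of Nr4a1 instead lies within the gene's full span, chr15:101253902-101274795, and not just before the start of that span. Entries were found for 8 of the 10 genes, and the promoter set used here held none for Egr1 and Ier2. Capitals mark matches, on either strand, to TGACG (the core of the cyclic AMP response element, CRE), TGACGTCA (the full CRE, which contains that core), TGACTCA (an AP-1 site), TGACATCA (the AP-1-like site known from the Jun promoter), TTACGTCA (an ATF site, which overlaps the CRE core), TGATGCAA (a site shared by C/EBP and ATF factors), GCGGGGGCG (an EGR site), TATAAA (the core promoter box named for its first letters) and the CArG box, the site of SRF. The motifs were chosen with the sequences in view.
Fos, chr12:85473640-85473889, plus strand: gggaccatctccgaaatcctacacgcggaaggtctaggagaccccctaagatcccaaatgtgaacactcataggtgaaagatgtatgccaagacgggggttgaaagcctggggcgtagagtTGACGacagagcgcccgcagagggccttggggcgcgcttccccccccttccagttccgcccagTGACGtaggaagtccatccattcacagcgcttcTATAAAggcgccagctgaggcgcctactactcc
Jun, chr4:95052223-95052472, minus strand: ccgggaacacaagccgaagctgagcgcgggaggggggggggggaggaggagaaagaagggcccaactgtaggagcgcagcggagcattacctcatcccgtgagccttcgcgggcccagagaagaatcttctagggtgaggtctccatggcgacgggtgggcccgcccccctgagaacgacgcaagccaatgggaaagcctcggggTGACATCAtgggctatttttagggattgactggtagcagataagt
Atf3, chr1:191183334-191183583, minus strand: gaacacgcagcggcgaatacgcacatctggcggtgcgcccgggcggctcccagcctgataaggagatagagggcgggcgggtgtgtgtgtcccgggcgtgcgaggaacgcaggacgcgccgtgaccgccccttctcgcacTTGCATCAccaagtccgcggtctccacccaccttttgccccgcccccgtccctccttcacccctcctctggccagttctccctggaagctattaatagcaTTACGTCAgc
Nr4a1, chr15:101266596-101266845, plus strand: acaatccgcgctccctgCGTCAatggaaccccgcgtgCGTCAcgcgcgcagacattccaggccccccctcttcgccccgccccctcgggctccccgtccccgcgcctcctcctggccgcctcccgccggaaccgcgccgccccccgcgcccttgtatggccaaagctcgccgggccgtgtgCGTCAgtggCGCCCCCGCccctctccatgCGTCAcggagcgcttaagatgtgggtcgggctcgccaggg
The Fos promoter held the CRE core 129 and 66 bases before the start and a TATA box 33 bases before it. The core TGACG occurred in the promoters of 5 of the 8 genes (Fos, Fosb, Junb, Atf3 and Nr4a1), and in 17.8% of 32851 promoter windows of the same length. TGACATCA occurred in Jun alone of the 8 and in 2.93% of all windows, TTACGTCA and TGATGCAA in Atf3 alone and in 0.447% and 0.791%. The EGR site was found in Fosb, Fosl2 and Nr4a1 and in 2.57% of all windows, and TATAAA in Fos and in 12.4%. None of the 8 windows held the full CRE, TGACTCA or a CArG box, which 1.55%, 4.46% and 1.47% of all windows did. A site outside these 250 bases would not be seen, so the promoters may hold such sites farther away. Genes with a higher signal and genes at background both carried the CRE core, and a match in these letters is not a measured binding site.

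Of the 10 genes, 6 had a higher signal with AAV8-Prox1 than in controls in the limma test (threshold: adjusted p of 0.05), none was lower and 4 did not pass. The 6 were Fos, Egr1, Atf3, Jun, Jund and Fosl2. Over all 19057 genes, 5.23% were higher and 4.21% were lower by the same rule. Many of those genes lie at background, where a change is hard to see. Among the 6733 genes with a mean log2 signal of 7 or more over the 6 arrays, a level that served as the background limit, 13.0% were higher. In 8 of the 10 genes the lowest AAV8-Prox1 value exceeded the highest control value, which held for 12.2% of all genes and for 22.5% of those with a mean of 7 or more. In none of the 10 did the groups lie apart in the other direction, which held for 11.1% of all genes. The median log2 change of the 10 genes was 0.49, and that of all genes was 0.00.

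**Figure D1:**
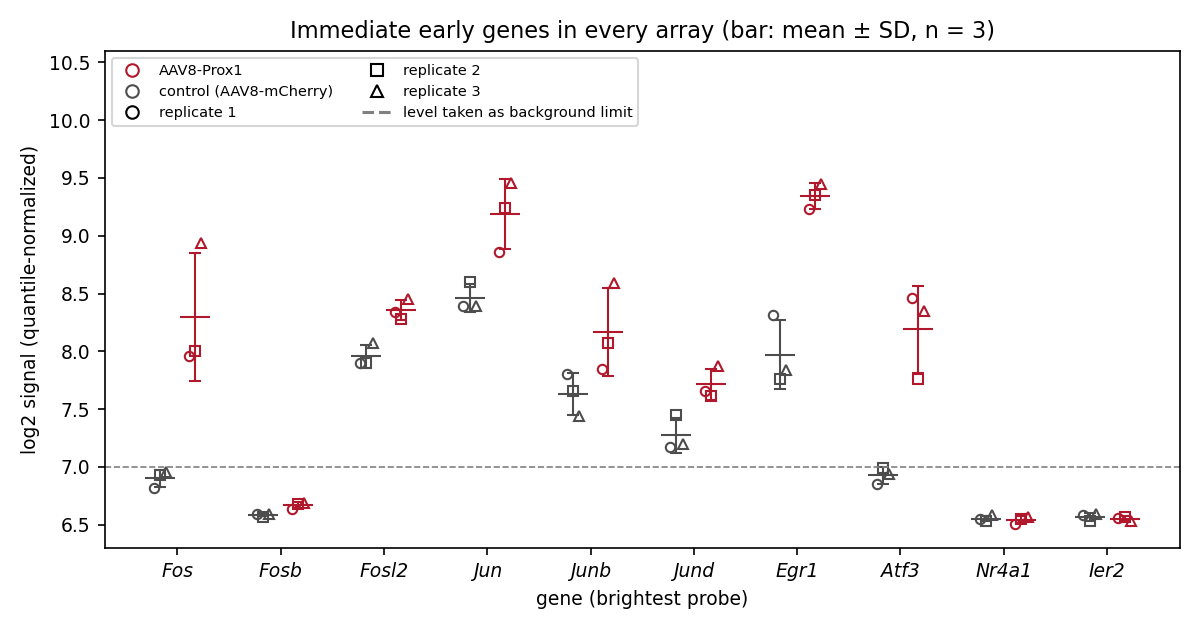
Quantile-normalized log2 signal of the brightest probe of each of the 10 genes in each of the 6 arrays, with AAV8-Prox1 muscles in red, control muscles in grey and the marker shape giving the replicate number. Horizontal bars are means with the SD of 3 muscles, and the dashed line is the log2 signal of 7 taken as the limit above background. Fos, Egr1 and Atf3 are the genes with the widest gaps, and Fosb, Nr4a1 and Ier2 stay under the line in every array.

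Fos encodes the founding member of the FOS family, which binds DNA only with a JUN partner. Its log2 signal was 7.96, 8.0 and 8.94 in AAV8-Prox1 muscles 1 to 3 and 6.82, 6.93 and 6.96 in control muscles 1 to 3. All control muscles thus lay under the background limit, all AAV8-Prox1 muscles lay above it, and AAV8-Prox1 muscle 3 stood apart from both others. The means were 8.30 ± 0.55 (SD, n = 3) and 6.90 ± 0.07 (SD, n = 3), which put Fos at least 2.46-fold higher (measured log2 difference 1.40, standard error 0.24, adjusted p = 0.0145 from limma). Such a lower bound sets the mean of the bright group against the background limit of 7. Without AAV8-Prox1 muscle 3 the log2 difference was 1.08 (adjusted p = 0.000479). The call was lost with intensity trend and robust estimation (adjusted p = 0.0844) and, just over the threshold, without control muscle 3.

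The other FOS family genes were Fosl2 and Fosb. Fosl2, which encodes FRA2, had log2 signals of 8.34, 8.28 and 8.45 with AAV8-Prox1 and of 7.90, 7.90 and 8.07 in controls. The groups did not overlap and the muscles of 1 group lay close together. Fosl2 was 1.32-fold higher (log2 change 0.40, standard error 0.06, adjusted p = 0.0104), and it passed in all 6 fits that left out 1 array. Its other 2 probes were at background in every array, with log2 changes of -0.07 and -0.02, so that the mean over the 3 probes gave 0.10 and did not pass (adjusted p = 0.117). Fosb, which encodes a close relative of FOS, lay between 6.57 and 6.69 in all arrays. Although its AAV8-Prox1 values of 6.64, 6.68 and 6.69 were all above the control values of 6.59, 6.57 and 6.59, both groups were under the background limit, and the difference did not pass (adjusted p = 0.24).

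The 3 JUN family genes supply the partners of FOS proteins and can also pair with each other. Jun had log2 signals of 8.86, 9.24 and 9.46 in AAV8-Prox1 muscles and of 8.39, 8.60 and 8.39 in controls. It was above background in every muscle, the groups did not overlap, and the gap between the lowest AAV8-Prox1 and the highest control muscle was small beside the spread of the AAV8-Prox1 muscles. Jun was 1.65-fold higher (log2 change 0.73, standard error 0.14, adjusted p = 0.0247). The call was lost without AAV8-Prox1 muscle 2 (adjusted p = 0.0941), control muscle 1 (0.076) or control muscle 3 (0.0901), with log2 changes between 0.59 and 0.89 in the 6 such fits.

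Junb, a JUN family member that often opposes JUN, had log2 signals of 7.85, 8.07 and 8.59 with AAV8-Prox1 and of 7.80, 7.66 and 7.44 in controls. The highest control and the lowest AAV8-Prox1 muscle nearly touched. The log2 change was 0.54 with a 95% interval of 0.12 to 0.96 and did not pass (adjusted p = 0.173), except when testing was limited to probes that reached 7 in 3 arrays or more (adjusted p = 0.0326). A second Junb probe was at background in all arrays. Jund, the JUN family member with the steadiest expression in most cells, had log2 signals of 7.66, 7.61 and 7.87 against 7.17, 7.45 and 7.20. The groups did not overlap, and control muscle 2 lay nearest to the AAV8-Prox1 muscles. Jund was 1.36-fold higher (log2 change 0.44, standard error 0.09, adjusted p = 0.0331), and passed in 1 of the 6 fits that left out 1 array, that without control muscle 2. In the other 5 its adjusted p was 0.0573 to 0.115, and it was 0.103 with the replicate number as a block.

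Egr1, a zinc finger factor induced through SRF and its ETS partners, had log2 signals of 9.23, 9.35 and 9.45 in AAV8-Prox1 muscles and of 8.31, 7.76 and 7.84 in controls. The AAV8-Prox1 muscles lay close together, with means of 9.34 ± 0.11 (SD, n = 3) against 7.97 ± 0.30 (SD, n = 3), and control muscle 1 was the highest control. Egr1 was 2.59-fold higher (log2 change 1.37, standard error 0.14, adjusted p = 0.00151), the smallest adjusted p of the 10 genes. It passed in all 6 fits that left out 1 array, at log2 changes of 1.27 to 1.54, and in each of the other alternatives run.

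Atf3, a factor of the ATF and CREB family that is induced by many kinds of stress, had log2 signals of 8.46, 7.76 and 8.35 with AAV8-Prox1. The control values of 6.85, 6.99 and 6.94 were all under the background limit. AAV8-Prox1 muscle 2 was the lowest of its group here, whereas AAV8-Prox1 muscle 1 was the highest, unlike in Fos. Atf3 was at least 2.28-fold higher (means 8.19 ± 0.38 and 6.93 ± 0.07, SD, n = 3 each, measured log2 difference 1.26, standard error 0.16, adjusted p = 0.00453). It passed in all 6 fits that left out 1 array and in each of the other alternatives run.

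Nr4a1, an orphan nuclear receptor that exercise is known to induce in muscle, lay between 6.51 and 6.58 in all arrays, and Ier2, a nuclear immediate early protein, between 6.53 and 6.59. Each has 1 probe, and both stayed at background in both groups, so no fold is given. Their log2 differences had 95% intervals of -0.09 to 0.07 in each case. At this signal a change in either gene was not detectable with these probes.

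**Figure D2:**
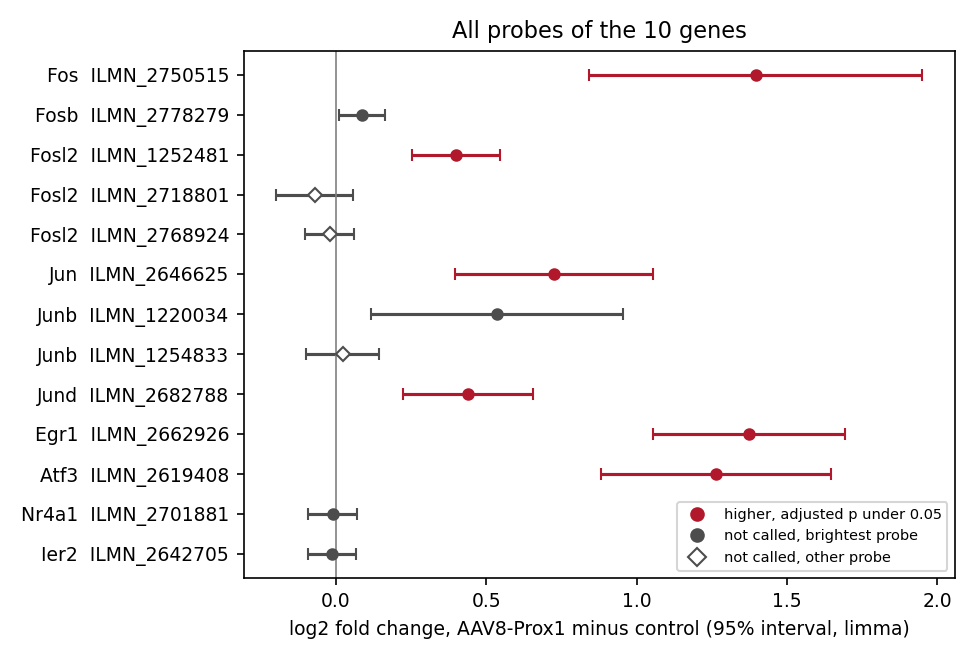
Log2 fold change of AAV8-Prox1 against control muscles for each of the 13 probes, with the 95% interval from limma. Red points are the 6 probes at an adjusted p under 0.05, filled grey points are brightest probes that did not pass, and open diamonds are the dimmer probes of Fosl2 and Junb. The intervals of Fos, Egr1 and Atf3 lie highest, from 0.84 to 1.95, from 1.05 to 1.69 and from 0.88 to 1.65.

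The muscles also differed within a group. The 7 genes with a mean log2 signal of 7 or more over the 6 arrays were Fos, Fosl2, Jun, Junb, Jund, Egr1 and Atf3, of which Fos and Atf3 reached that level only through the AAV8-Prox1 arrays. Among the AAV8-Prox1 muscles, muscle 3 had the highest signal in 6 of these 7 genes, all but Atf3, and the lowest in none. Muscle 1 was the lowest in 4 and muscle 2 in 3. Averaged over the 5 genes that were above the background limit in every array of both groups (Fosl2, Jun, Junb, Jund and Egr1), the difference from the control mean was 0.53, 0.65 and 0.91 on the log2 scale in AAV8-Prox1 muscles 1 to 3, and 0.06, 0.02 and -0.07 in control muscles 1 to 3. With Fos and Atf3 added it was 0.75, 0.74 and 1.14 in the AAV8-Prox1 muscles. These averages describe the muscles and were not tested. The times of dissection and the order of the muscles are not given in the sources used here.

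**Figure D3:**
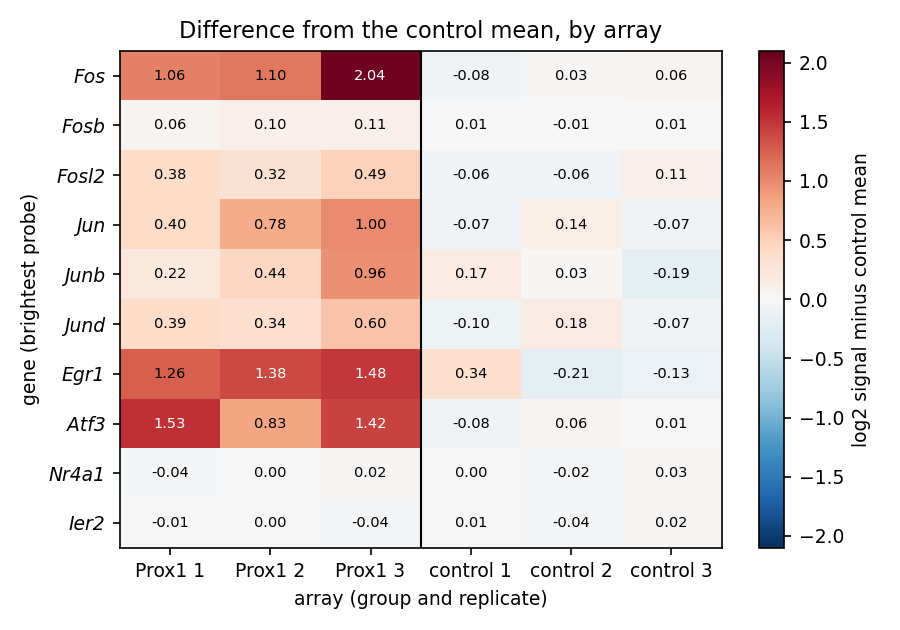
Difference of each array from the control mean, in log2 units, for the brightest probe of each of the 10 genes (rows) in the 3 AAV8-Prox1 and the 3 control arrays (columns). The values run up to 2.04 for Fos in AAV8-Prox1 muscle 3, and no control value exceeds 0.34, that of Egr1 in control muscle 1.

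Of 19 measured genes in a list of further transcription regulators of this class, 1 was higher, close to the 5.23% of all genes, none was lower and 18 did not pass, with a median log2 change of -0.01. The higher gene was Csrnp1, a nuclear protein induced by AXIN1 signalling. It had log2 signals of 8.70, 8.35 and 8.62 against 7.45, 7.99 and 7.57, and was 1.85-fold higher (adjusted p = 0.0125). Control muscle 2 was the highest control, and the call was lost without control muscle 3 (adjusted p = 0.0523) and with the replicate block (0.07). Egr3, a relative of Egr1, was under the background limit in all controls and had a mean of 7.15 ± 0.25 (SD, n = 3) in the AAV8-Prox1 group, at least 1.11-fold higher, which missed the threshold (adjusted p = 0.0976). The zinc finger factor Klf6 had a log2 change of 0.41 (adjusted p = 0.0939) and the antiproliferative gene Btg1 one of 0.26 (adjusted p = 0.183). The other NR4A genes, Nr4a2 and Nr4a3, were under the background limit in every array, as Nr4a1 was, and so were Egr2, Egr4 and Myc.

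Of 29 early response genes that do not encode transcription factors, 3 passed as higher and 1 as lower, 25 did not pass, and the list had a median log2 change of 0.07. Dusp1, a phosphatase that switches off MAP kinases and is induced by them, had log2 signals of 11.46, 11.42 and 11.69 against 10.53, 10.84 and 10.28. Its groups did not overlap and it was 1.96-fold higher (adjusted p = 0.00634), in all 6 fits that left out 1 array. Ccn2, a secreted matrix protein induced by stretch and by TGF-β, was 1.59-fold higher (adjusted p = 0.00488), and its second probe had a log2 change of 0.64 (adjusted p = 0.036). Trib1, a pseudokinase, was 1.70-fold higher (adjusted p = 0.00967) by its brighter probe, with the other at background. Like Fos and Jun, it was highest in AAV8-Prox1 muscle 3, at 8.06 against 7.52 and 7.78 in muscles 1 and 2. The lower gene was Cdkn1a, a cell cycle inhibitor, at a log2 change of -0.59 (adjusted p = 0.0425), a call that was lost in 4 of the 6 fits that left out 1 array. Its 2 other probes, both above background, were at -0.44 and -0.26 and did not pass (adjusted p = 0.0827 and 0.331). In 8 of the 29 genes the groups lay apart with AAV8-Prox1 higher, beside 12.2% of all genes and 22.5% of those with a mean of 7 or more. Of the 29, 19 had such a mean. In 3 of the 29 the groups lay apart with AAV8-Prox1 lower, beside 11.1% of all genes. Genes with groups apart that did not pass included Gadd45b, a stress response gene, at a log2 change of 0.37 (adjusted p = 0.337). The kinase gene Sik1 was at 0.36 (0.2) and Zfp36l1, a relative of Zfp36, at 0.28 (0.0789). The kinase gene Sgk1, with AAV8-Prox1 lower, was at -0.39 (0.161). In others the groups overlapped. Zfp36, which destabilizes messenger RNAs, had log2 signals of 8.23, 8.42 and 8.40 against 8.45, 8.72 and 7.96, a log2 change of -0.03 with a 95% interval of -0.42 to 0.37, and Ccn1, the closest relative of Ccn2, had one of 0.04 with an interval of -0.31 to 0.39. Il6, Ccl2 and Ptgs2, which are induced in inflammation, were under the background limit in every array. Cxcl1 was under it too, though its groups lay apart with AAV8-Prox1 higher (adjusted p = 0.141). Nfkbia was above background, at a log2 change of 0.28 with overlapping groups (adjusted p = 0.319). Gadd45b, Sik1, Zfp36l1, Sgk1, Zfp36, Ccn1, Il6, Ccl2, Ptgs2, Cxcl1 and Nfkbia were picked for naming with their values known. The same holds for Nr4a2, Nr4a3, Egr2, Egr4 and Myc.

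Of 24 measured upstream regulators, 2 passed as higher and 2 as lower, 20 did not pass, and the list had a median log2 change of -0.04. Srf, the factor that binds the CArG boxes of Fos and Egr1, was 1.31-fold lower, with log2 signals of 8.84, 8.68 and 8.84 against 9.16, 9.13 and 9.25 (adjusted p = 0.00669). The groups did not overlap, and a second Srf probe had a log2 change of -0.26 (adjusted p = 0.0379). Mapkapk2, a kinase activated by p38, was 1.34-fold lower (adjusted p = 0.00662). Mapk12, the p38γ kinase that is abundant in skeletal muscle, was 1.49-fold higher (adjusted p = 0.000337), and its other 2 probes, both above background, had log2 changes of 0.47 each. Rps6ka3, which encodes the kinase RSK2, was at least 1.13-fold higher, with all controls just under the background limit (adjusted p = 0.0156), and lost the call in 3 of the 6 fits that left out 1 array.

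The bZIP factors that can pair with FOS and JUN proteins or share their sites showed 1 lower gene, no higher gene and 13 that did not pass among 14 measured, with a median log2 change of -0.03. The lower gene was Atf5, at a log2 change of -0.38 (adjusted p = 0.0227), a call that was lost in 5 of the 6 fits that left out 1 array. Atf2, a partner of JUN, had a log2 change of 0.18 (adjusted p = 0.629), Atf4 one of -0.10 (adjusted p = 0.832) and Atf7 one of -0.06 (adjusted p = 0.639). Their 95% intervals were -0.12 to 0.47, -0.40 to 0.20 and -0.17 to 0.04.

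Of 18 measured genes known as targets of AP-1 or EGR1, counting the EGR corepressors Nab1 and Nab2, 1 passed as higher and 2 as lower, 15 did not pass, and the list had a median log2 change of 0.02. Tgfb1, the cytokine TGF-β1, had log2 signals of 7.50, 8.14 and 8.06 against 7.07, 7.16 and 7.17, and was 1.70-fold higher (adjusted p = 0.0268). It passed in 1 of the 6 fits that left out 1 array, that without AAV8-Prox1 muscle 1. The angiogenic factor Vegfa was 1.99-fold lower, with log2 signals of 8.23, 8.26 and 8.25 against 8.96, 9.54 and 9.21 (adjusted p = 0.00419), and a further bright probe was at -0.98. Pdgfb, a growth factor made by endothelial cells, was at -0.38 (adjusted p = 0.0392), and the call was lost in 5 of the 6 fits that left out 1 array. The matrix gene Fn1 was at 0.45, and its groups overlapped (adjusted p = 0.294). All 5 of these lists lay near the median of all genes. Their counts of higher genes ran from none of 14 bZIP partners to 3 of 29 early response genes. These stand beside 5.23% of all genes and 13.0% of those with a mean of 7 or more.

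**Figure D4:**
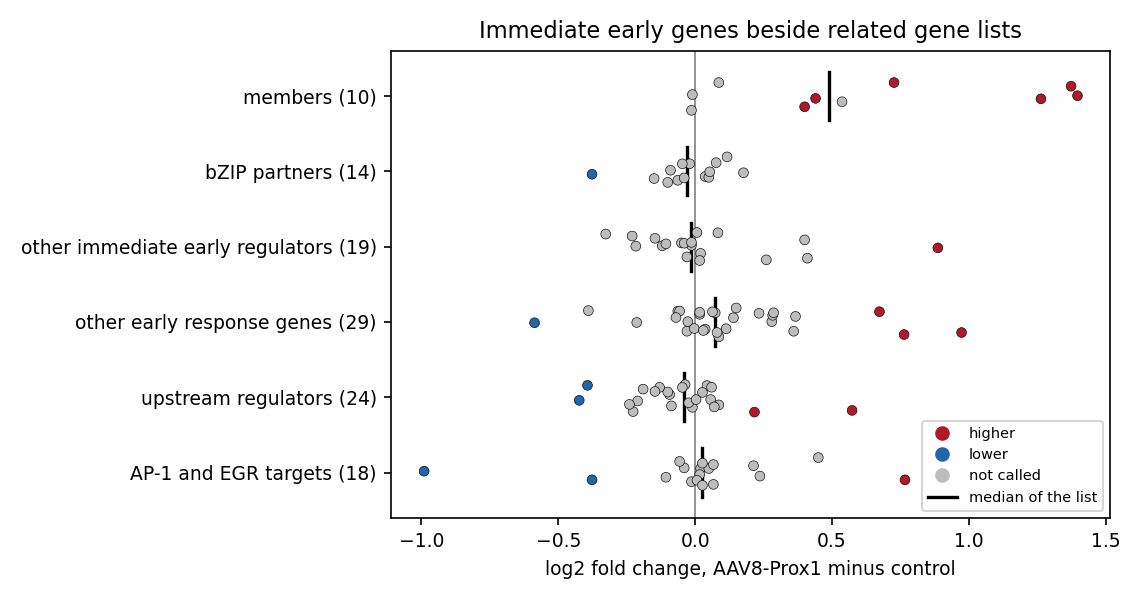
Log2 fold change of AAV8-Prox1 against control muscles for each gene of the 10 immediate early transcription factors (labelled members) and of 5 related lists, with the number of measured genes in brackets. Red points are higher and blue points lower at an adjusted p under 0.05 from limma, grey points did not pass, and black bars are medians, at 0.49 for the 10 factors and between -0.04 and 0.07 for the other lists.

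The genes whose pattern over the 6 arrays was most like that of the 3 most variable members were found by the root mean square difference of centred log2 signals, among 7003 genes above background in at least 1 group. Nearest to Fos were Srxn1 (difference 0.23), which encodes the antioxidant enzyme sulfiredoxin, Pdp2 (0.23), a phosphatase of pyruvate dehydrogenase, and Prrc1 (0.24). Srxn1 had log2 signals of 9.12, 8.81 and 9.79 against 8.31, 8.16 and 8.05, and like Fos was highest in AAV8-Prox1 muscle 3. Nearest to Egr1 were Cenpa (0.13), a histone variant of centromeres, Tubb4b (0.13), a β-tubulin, and Nrn1l (0.14). The control values of Tubb4b, 11.27, 10.75 and 10.82, were highest in control muscle 1, as those of Egr1 were. Nearest to Atf3 were Rcan1 (0.17), which calcineurin induces, Cited2 (0.17), a transcriptional coregulator, and Nrbp2 (0.18). All 9 genes were higher with AAV8-Prox1 by the same test, as genes chosen for likeness to members that were higher would be.

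RNA was taken from whole muscle, where fewer cells of a type and less RNA per cell cannot be told apart. The labelled tissue was borne out by Acta1 and Ckm, with mean log2 signals of 14.85 and 14.66 in AAV8-Prox1 and of 14.78 and 14.70 in control muscles, whereas both probes of Prox1 itself were at background in all arrays (6.42 to 6.62), so these probes could not show the overexpression. Of the 9 fibre markers in all, Des was higher, and Myh4, Tnnt3, Tnni2 and Mylpf, which belong to fast fibres, were lower. The call of Myh4 was lost in 4 of the 6 fits that left out 1 array. Pvalb and Actn3, also markers of fast fibres, were bright and did not pass, at log2 changes of -0.05 and 0.02 (adjusted p = 0.758 and 0.912). Other cells of the muscle, macrophages and fibroblasts among them, can also express Fos, Jun, Egr1 and Atf3. Of 9 measured macrophage markers, 3 were higher (C1qc, Mrc1 and Cd14, the last of which was under the background limit in all arrays), none was lower and 6 did not pass. The call of Mrc1 was lost in 5 of the 6 fits that left out 1 array and that of C1qc in 3. In 7 of the 9 markers the groups lay apart with AAV8-Prox1 higher and in none with it lower. Among the 7 were Adgre1, C1qa and Cd14, whose signals were at background in both groups. The share with AAV8-Prox1 higher was 12.2% of all genes and 22.5% of those with a mean of 7 or more. Lyz2 and C1qb, which did not pass, were at log2 changes of 0.67 and 0.55 (adjusted p = 0.109 and 0.0736). Averaged over the 4 of them with a mean log2 signal of 7 or more, the shift from the control mean was 0.38 to 0.64 with AAV8-Prox1 and -0.16 to 0.16 in controls. Adgre1, Csf1r, Itgam, C1qa and Cd14 were under the background limit in every array, as were all 5 measured neutrophil and all 5 fat cell markers. Of 8 fibroblast markers, 1 was higher, and in 5 the groups lay apart with AAV8-Prox1 higher and in none with it lower. Among the 5 were Col3a1 and Dpt, which were under the background limit in every array. Of 10 endothelial markers, 2 were lower (Tie1 and Flt1, each lost in 5 of the 6 fits that left out 1 array). In 5 of the 10 the groups lay apart with AAV8-Prox1 lower, beside 11.1% of all genes, and in none with it higher. Such shifts were averaged over the 5 fibroblast and 9 endothelial markers with a mean of 7 or more. In the AAV8-Prox1 muscles they were 0.40 to 0.51 for fibroblast and -0.48 to -0.26 for endothelial markers. In controls they were -0.29 to 0.17 and -0.12 to 0.20. Among satellite cell markers 1 of 6 was lower, Myod1. Pax7, Myf5 and Calcr were under the background limit in every array. Cdh15 and Vcam1, at log2 changes of 0.05 and 0.19, did not pass. None of 7 smooth muscle, 3 red blood cell and 3 nerve markers passed. The part of these cell types in the changes of the immediate early genes was not tested.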

How the data were processed

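RNA of 3 AAV8-Prox1 and 3 AAV8-mCherry TA muscles was hybridised to Illumina Mouse WG-6 v2 BeadChips, 1 array per muscle. Per the study's methods, the authors checked quality in GenomeStudio and quantile-normalized the signals in Chipster. The values used here are the log2 signals deposited by the authors, rounded to 2 decimals. The median of every array was 6.61. Whether background was corrected is not given in the sources used here. The deposited raw table, with its detection p-values, was left out because its 12 columns could not be tied to samples, so a log2 signal of 7, which 10667 to 10672 probes per array reached, served as the limit above background in place of a detection p-value. The number of arrays limits the precision.

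Of 45281 probes, 34885 carry 1 gene symbol, 18 several and 10378 none. A RefSeq gene table held the symbols of 34807 probes, and no symbol needed updating. For each gene the probe with the highest mean was taken. The test was limma (version 3.58.1, R 4.3.3, lmFit and eBayes), p-values were adjusted by Benjamini-Hochberg across the 45281 probes, and the threshold was 0.05. The test was checked on simulated data. A two-sided exact permutation test of 3 against 3 cannot give a p below 0.1, and p-values measure the spread between these muscles. The labels do not tie replicate numbers to a mouse. Equal numbers had correlated deviations of -0.13, 0.04 and -0.08 across probes, which cannot settle the pairing, and they were not read as pairs in the main test. Arrays of 1 group correlated at 0.990 to 0.994 over bright probes, and arrays of different groups at 0.965 to 0.974.

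The genes and lists were chosen with earlier results of these data known. From each list the up to 4 genes with the smallest adjusted p among those with a group mean of 7 or more are named, with others where the text says so. Alternatives were the mean of all probes, the probe with the smallest p, a replicate block, trend and robust estimation, array weights, a filter on dim probes, median centring, a minimum log2 change of 0.5 in size, leaving out each array in turn and, chosen after seeing the data, cyclic loess.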

Additional observations from a re-analysis of the deposited data

How the results depend on the processing

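The count of higher genes among the 10 immediate early transcription factors, 6, ranged from 3 to 6 over the 6 fits that left out 1 array, with the lowest count of 3 without control muscle 3, and from 4 to 7 over the other alternatives. It was 5 with the replicate block and 4 with a minimum log2 change of 0.5 in size. Whether equal replicate numbers come from 1 mouse is not known. The count of lower genes was 0 throughout. Egr1 and Atf3 passed in every fit, and no named gene that passed changed its direction. Median centring shifted no array and changed nothing. With detection p-values replaced by a fixed level, calls near a log2 signal of 7 are the least certain. Over all genes, the counts were 997 higher and 802 lower, and 352 and 280 with that minimum.

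The small counts of the related lists moved more. With the replicate block they were 0 lower bZIP partners, 0 higher immediate early regulators, 0 lower early response genes, 1 higher upstream regulator and 1 lower target. With a minimum log2 change of 0.5 in size they were 0 lower bZIP partners, 1 higher and 0 lower upstream regulators and 1 lower target. With trend and robust estimation they were 3 higher immediate early regulators, 2 lower early response genes and 1 higher upstream regulator, and with only brighter probes tested 2, 2 and 1. The mean of all probes gave 0 lower early response genes. Over the fits that left out 1 array, lower bZIP partners were 0 to 1, higher immediate early regulators 0 to 2, lower early response genes 0 to 1, higher upstream regulators 1 to 2, higher targets 0 to 1 and lower targets 1 to 2. The cause of these differences was not tested.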
